A study of Mus musculus with 5 samples.

Results

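A CpG reads as CG on both DNA strands, so each CpG is a dyad of 2 cytosines, 1 on the forward strand (F) and 1 on the reverse strand (R), at adjacent positions. The CpG dyads described here are the autosomal ones for which both cytosines had at least 10 reads in all 5 libraries. There were 21490 such dyads, holding 42980 of the 280635 autosomal cytosine positions shared by the libraries, or 8.29% of the 259145 CpGs that these positions represent. The other 237655 CpGs had 10 or more reads in all 5 libraries on 1 strand only, and are called CpGs read on 1 strand below, although the second strand may be listed in some of the libraries. The rule used coverage and position, not methylation.

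After replication the new strand is unmethylated, and DNMT1, guided by UHRF1 to such half-methylated sites, copies the mark from the old strand. A dyad is therefore usually methylated on both strands or on neither, and a dyad with only 1 methylated cytosine is called hemimethylated. TET enzymes oxidise methylated cytosine and can lead to its loss. The Idh1 R132H change gives the cytosolic isocitrate dehydrogenase a new activity, the making of 2-hydroxyglutarate, which can inhibit TET enzymes. Levels below are averages over many cells: a level of F equal to R does not show that single molecules carry the mark on both strands, since reads of the 2 strands came from different molecules.

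The assay was extended reduced representation bisulfite sequencing of DNA from LSK cells of mouse bone marrow, a fraction that lacks lineage markers, carries Sca1 and Kit and holds blood stem and progenitor cells. The groups were Idh1-R132H knock-in (n = 3 libraries, here KI1, KI2 and KI3, plotted as knock-in 1 to 3) and wild-type (n = 2 libraries, here WT1 and WT2, plotted as wild-type 1 and 2), both on a 129Ola x C57Bl/6J background. The labels used here give neither the driver nor the zygosity of the knock-in, nor the animals' ages. They do not tie libraries to individual mice. Any p-value over libraries therefore covers their spread alone, which may be technical. The level of a cytosine is the percent of its reads that were C, and the strand difference is the level on F minus the level on R in percentage points.

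Depth differed widely between libraries, which listed from 447270 (WT1) to 2028186 (KI3) positions each. Median coverage per strand of the dyads was 61 and 60 reads (F and R) in KI1, 28 on both strands in KI2 and 146 in KI3. It was 20 on both strands in WT1 and 41 in WT2. KI2 and WT1 were the shallowest libraries, and they also stood apart on chromosome X, which was not part of the set. There the 161 dyads had mean F levels of 30.2% and 36.1% in these 2 libraries, against 15.8%, 16.2% and 16.0% in KI1 and KI3 and WT2. On the mitochondrial genome, where 6 dyads were covered, the largest shares of C reads were both in WT1, 0.359% on F (95% Wilson interval 0.174 to 0.740%) and 0.457% on R (0.0807 to 2.54%). Sequenced PCR copies carry no molecular identifiers, so this interval and all expectations from read counts cover counting error only.

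MspI, the enzyme used here, cuts at CCGG. To see which DNA was read on both strands, RefSeq promoter sequences (250 bases before to 50 after a gene's start, GRCm38.p6) were placed on the listed mm9 positions by the spacing of their CpGs alone. A unique place was found for 9068 of the 15982 promoters with enough CpGs to search, and 5 placements were found when promoters were searched on a wrong chromosome. Over all the promoter sequences, 52.8% hold a CCGG and 32.6% hold at least 2, as do 99.3% and 89.6% of those placed (both strands, since CCGG is its own complement). The placed promoters held 4086 of the dyads. The first 4 of the following stretches between neighbouring CCGG sites hold dyads at intermediate or high levels, which were rare in placed promoters. They are 4 of 8 stretches with such a dyad that were considered for display. The others were 3300002P13Rik, Spag8, Gm31036 and LOC115490388. The last stretch is shown because, among those considered, it held the largest number of dyads between its CCGG ends, 10. Each is written 5′ to 3′ on the forward strand, with the CCGG ends and the dyads read on both strands in capitals.
Gm39329: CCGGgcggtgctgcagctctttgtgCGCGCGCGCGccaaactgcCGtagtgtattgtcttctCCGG
Tbx1: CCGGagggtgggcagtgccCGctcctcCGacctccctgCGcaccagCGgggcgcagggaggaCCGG
Gm1070: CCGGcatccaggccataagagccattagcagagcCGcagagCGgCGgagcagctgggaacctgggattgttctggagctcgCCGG
Prr23a2: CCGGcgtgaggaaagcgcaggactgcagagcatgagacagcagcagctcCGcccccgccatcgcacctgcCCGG
Mapk7: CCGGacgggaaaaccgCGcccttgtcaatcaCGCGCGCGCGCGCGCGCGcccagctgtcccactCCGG

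These stretches were 66, 66, 85, 74 and 68 bases long. Among the dyads of placed promoters, 12.9% lay within a CCGG. A further 2720 lay between 2 CCGG sites of the placed window, and in 100% of these both sites were within 50 bases of the CpG, a limit set after the distances had been seen. The same held for 23.5% of the 20757 such CpGs read on 1 strand. The distance between the flanking CCGG sites was 61 to 86 bases (5th to 95th percentile, median 70) around dyads and 61 to 133 bases (median 84) around CpGs read on 1 strand. This is a description, with no test.

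**Figure D1:**
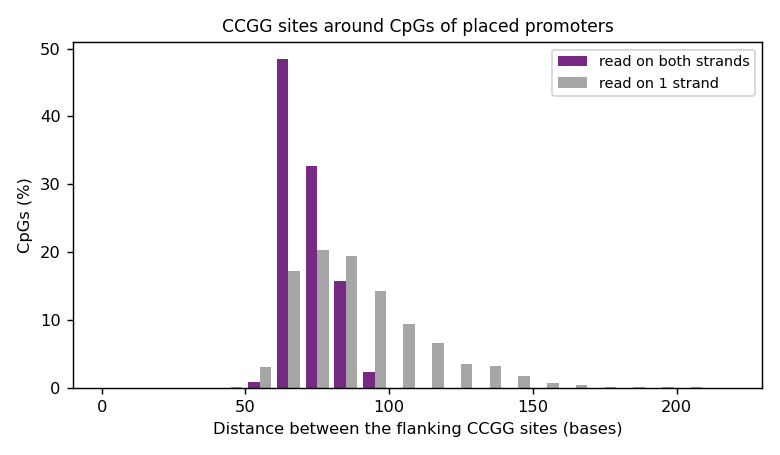
Distance in bases between the CCGG sites on either side of a CpG (x axis, bins of 10 bases) and percent of CpGs (y axis), for CpGs of placed promoters that lie between 2 CCGG sites. The 2720 CpGs read on both strands sit in 50 to 100 bases, and those read on 1 strand reach beyond 200.

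Neighbouring positions showed the same layout over all dyads. In 71.0% of dyads, positions read on F outnumbered those read on R in the 60 bases before, and R outnumbered F in the 60 bases after. None of the 2902 of these in placed promoters lay within a CCGG. In 8.72% the order was the reverse, and 375 of the 394 of these in placed promoters lay within a CCGG. Dyads also came in groups, with 81.5% having another dyad within 50 bases, so that neighbouring dyads often share reads and are not independent.

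The dyads were mostly unmethylated. By the mean over both strands and all libraries, 18920 (88.0%) were under 20% (low), 649 (3.02%) were from 20 to under 80% (intermediate) and 1921 (8.94%) were at 80% or more (high). In placed promoters the mean level was 0.511%, and 16 of the 4086 dyads reached 20%. The mean dyad level was 10.8%, 11.01% and 10.5% in KI1, KI2 and KI3 and 10.2% and 10.4% in WT1 and WT2. CpGs read on 1 strand averaged between 21.9% and 23.1%. Dyads were 11.9 points lower on average (SD 0.203, n = 5), lower in 5 of 5 libraries (exact sign-flip permutation test, 2-sided, p = 0.0625, the smallest that 5 libraries allow).

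In most dyads F and R had the same level. The median absolute strand difference was 0 in each library, and F equalled R exactly in 74.4%, 87.5% and 65.6% of dyads in KI1, KI2 and KI3 and in 86.4% and 74.7% in WT1 and WT2. This share differed by level, running over the libraries from 73.8 to 93.2% in low dyads and from 6.61 to 69.5% in high dyads. In intermediate dyads it was 0.462%, 7.40% and 0.462% in KI1, KI2 and KI3 and 4.47% and 0.462% in WT1 and WT2. Mean F level minus mean R level was -0.03 points (SD 0.0187), below 0 in 5 of 5 libraries (exact sign-flip permutation test, 2-sided, p = 0.0625). At a minimum of 20 reads KI1 was above 0, at 0.147 points (exact sign-flip permutation p = 0.625). Weighted by reads the sign turned, to 3.16 points. Across dyads, as a description, Pearson's r between F and R was 0.963, 0.917 and 0.988 in KI1 to KI3 and 0.940 and 0.983 in WT1 and WT2.

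That r spans dyads near 0% and near 100%, and within the level classes it was lower. It ran over the libraries from 0.179 to 0.725 in low dyads and from 0.0183 to 0.264 in high dyads. In intermediate dyads it was 0.4996, 0.231 and 0.793 in KI1, KI2 and KI3, and 0.365 and 0.743 in WT1 and WT2, above both other classes in each library.

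The intermediate dyads had the largest strand differences in points. Their median absolute strand difference was 16.1, 29.4 and 8.84 points in KI1 to KI3 and 21.6 and 10.0 points in WT1 and WT2. The 2 shallowest libraries had the largest differences and the deepest had the smallest.

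These values were set against the difference expected from read counts. The expectation used here is exact: it holds the coverage of each strand and the total of C reads at their observed values and deals the C reads to the strands at random. Over the intermediate dyads the root mean square (RMS) strand difference was 27.4, 41.9 and 15.4 points in KI1, KI2 and KI3, against 9.69, 12.4 and 5.77 expected. In WT1 and WT2 it was 34.0 and 17.4 points, against 14.3 and 11.1 expected. Over all dyads the summed squared difference was 7.06, 10.99 and 6.16 times its expectation in KI1 to KI3 and 5.35 and 2.35 times in WT1 and WT2. All 5 libraries thus exceeded the spread that independent reads would give.

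**Figure D2:**
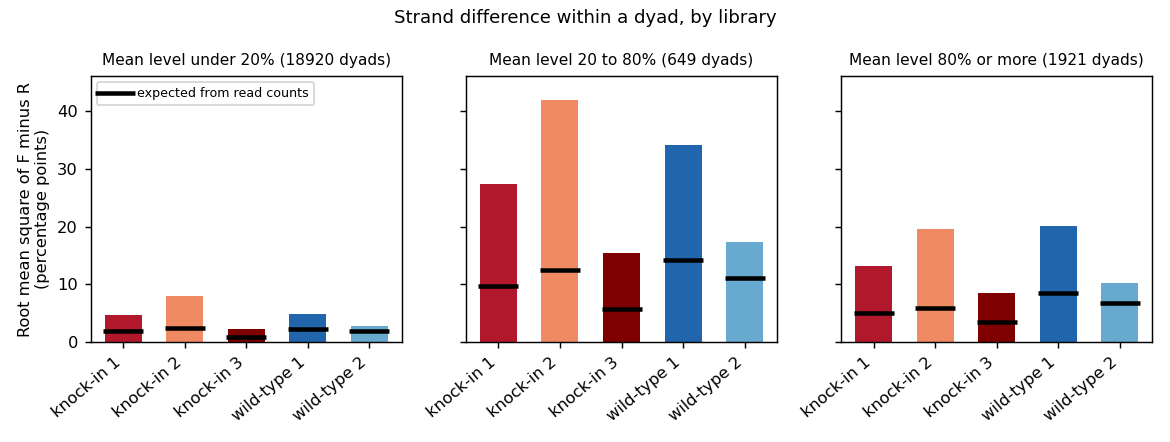
Root mean square of the strand difference in percentage points (y axis) in each library (bars), for dyads of low, intermediate and high mean level. Black marks give the value expected from read counts, which the bar exceeds in all 15 cases.

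The excess was present at every depth. Among dyads with 20 to 39 reads on the less covered strand, the RMS difference was 8.31, 9.81 and 8.54 points in KI1, KI2 and KI3 and 6.89 and 5.17 points in WT1 and WT2. The expected values were 3.18, 2.97, 4.33, 2.93 and 3.45 points in the same order. WT2 was the lowest at matched depth here, although its overall depth was below that of KI1 and KI3. Above 80 reads the bins of KI2 and both wild-type libraries held between 41 and 157 dyads each.

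**Figure D3:**
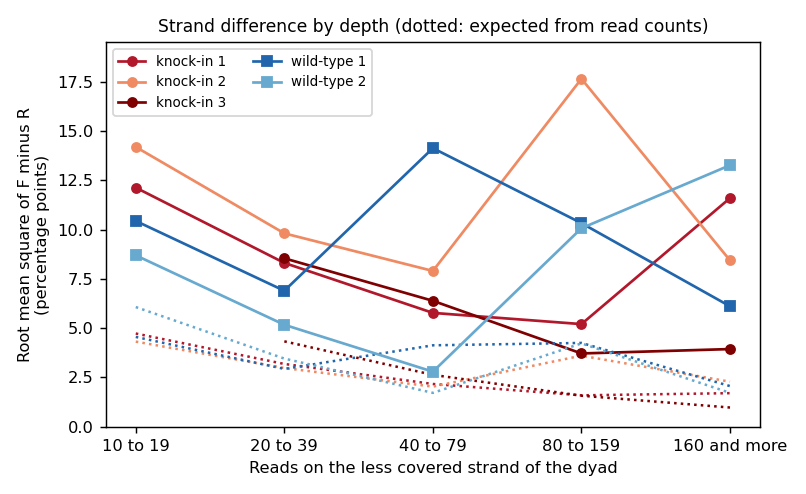
Root mean square strand difference in percentage points (y axis) by the number of reads on the less covered strand (x axis), 1 line per library, over all dyads. Dotted lines give the values expected from read counts, which lie below the observed line of the same library in each bin.

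Many strand values of intermediate dyads were at exactly 0 or 100%. They made up 7.16%, 31.1% and 0.924% of the 1298 strand values in KI1, KI2 and KI3. In WT1 and WT2 they made up 18.1% and 2.08%. With independent reads at the dyad's mean level, 0.144%, 0.494% and 8.77e-06% would be expected in KI1 to KI3 and 0.780% and 0.1003% in WT1 and WT2.

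The strand difference within a library was also set against the difference between libraries on 1 strand. For intermediate dyads, KI3 and WT2 differed by an RMS of 16.6 points on the same strand, between the 15.4 and 17.4 points that separated the strands within each. Between KI2 and WT1 the value was 38.7 points, and within them it was 41.9 and 34.0. Neighbouring intermediate dyads within 50 bases had strand differences that went together, with r from 0.330 to 0.460 over 158 pairs per library. These pairs share reads.

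A strand difference of 50 points or more was found in 84, 370 and 6 dyads in KI1, KI2 and KI3 and in 214 and 9 in WT1 and WT2. Read counts alone gave expectations of 0.218, 1.24 and 0.000147 dyads in KI1 to KI3 and 2.32 and 0.107 in WT1 and WT2. Neither strand was favoured: F was the higher in 43, 189, 3, 101 and 5 of them in the same order. One strand at 90% or more with the other at 10% or less was seen in 4, 67, 1, 11 and 1 dyads. The values next to the limit ran from 48.5 to 49.7 points just below it and from 50 to 62.3 points at or above it.

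These dyads were rarely the same ones from library to library. In all, 614 dyads (2.86%) reached 50 points in at least 1 library. Of these, 560 did so in 1 library only, 45 in 2, 6 in 3, none in 4 and 3 in all 5. Among the 45 the sign was the same in 23 and opposite in 22. KI2 and WT1 alone accounted for 525 of the 614. Of the 6 dyads of KI3, 5 were past the limit in KI1 and 5 in WT2, each with the same sign.

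**Figure D4:**
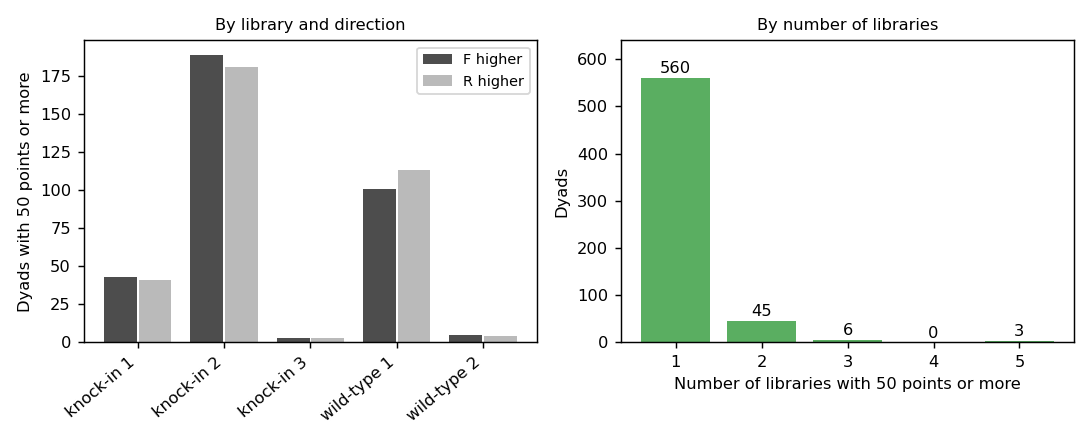
Left, number of dyads with a strand difference of 50 points or more in each library (y axis), with F higher and R higher as separate bars. Right, number of dyads (y axis) by the number of libraries in which they reached 50 points (x axis), falling from 560 in 1 library to 3 in all 5.

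The fragments shown above give examples at several levels. Of the named stretches not shown, only 3300002P13Rik reached 50 points, in WT1. The differences there were -78.6 and -58.3 points, on 21 F and 12 R reads. In Gm39329, the only dyads at 50 points or more were in KI2. F and R read 0% and 60% there at chr9:46137028-46137029 and 36% and 87.5% at chr9:46137030-46137031, on 25 F reads and 15 or 16 R reads. At these 2 dyads the strand difference in the other libraries ran from -26.7 to 27.5 points. Tbx1 encodes a T-box transcription factor of heart and pharyngeal development. At the first dyad of its fragment (chr16:18589031-18589032) F and R read 63.0% and 28.6% in KI1, 100% and 0% in KI2 and 28.6% and 40.7% in KI3. In WT1 and WT2 they read 63.6% and 0%, and 57.9% and 68.2%. The strands were thus furthest apart in the 2 shallowest libraries, on 13 and 35 reads in KI2 and 22 and 16 in WT1, and the sign was not the same in all.

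No dyad of the next 3 fragments reached 50 points. The 3 dyads of the Gm1070 fragment had mean levels of 50.8 to 67.4%. Averaged over the 3, F and R read 79.6% and 93.5% in KI1, 28.2% and 57.1% in KI2 and 54.0% and 32.3% in KI3. In WT1 and WT2 they read 76.5% and 79.8%, and 50.8% and 58.2%. The single dyad of the Prr23a2 fragment was methylated on both strands, between 66.7% and 100% in each strand value. The 10 dyads between the ends of the fragment of Mapk7, which encodes the kinase ERK5, averaged 0.0559%, and the largest strand difference at any of them was 4.44 points.

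Tested across libraries, few dyads were called for a strand difference. Without a test, F was higher in all 5 libraries in 67 dyads and R in 70. A single sign over the 5 libraries was found in 0.638% of all dyads and 9.40% of intermediate ones. Signs set at random would give a share of 0.0625 where no values are equal, and in most dyads F equalled R. With edgeR's quasi-likelihood test on methylated and unmethylated reads, with a term for each library, 13 of 21490 dyads were higher on F (0.0605%) and 16 were higher on R (0.0745%) at a Benjamini-Hochberg adjusted p under 0.05. At an unadjusted p under 0.05 there were 49 and 47, far below a share of 0.05 of the dyads. The test thus called less often than evenly spread p-values would, and few calls do not show that strand differences are rare. The 29 dyads lay in 7 places. Chromosome 17 at chr17:39980037-39985426 held 18 of them among 227 dyads, and chr11:108873201-108873243 held 5 among 9 dyads, all 5 higher on F. The other 6 were 2 neighbours at chr5:147072623-147072636 and 4 single dyads. Without the dyads in the top 0.1% of coverage 19 were called, and limma on arcsine levels called 0 with a variance fit over all dyads and 2 with one over the dyads that vary.

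The called dyads were among the deepest. Their median coverage per strand was 1726.5, 929 and 6771.5 reads in KI1, KI2 and KI3, against 60, 28 and 145 in the others. In WT1 and WT2 it was 201 and 2809 reads, against 20 and 41. The chromosome 17 stretch alone took between 17.8% and 29.0% of all dyad reads per library. Its reads per strand of a dyad ran from 10 to 14572 in KI1 and from 68 to 30007 in KI3. Whether the F and R reads of the called dyads came from a single place in the genome was not tested. The part of this coverage in the calls was not tested. In 21 of the 29 the mean difference was under 20 points, and in 23 the sign was the same in all 5 libraries.

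The 3 dyads described next, all called, had a difference of 50 points or more with 1 sign in all 5 libraries. At chr7:89920470-89920471 F read 89.3%, 100% and 95.3% in KI1 to KI3 and 100% and 96.8% in WT1 and WT2. R read 2.23%, 0% and 3.93% in KI1 to KI3 and 0% and 1.92% in WT1 and WT2. The strands did not overlap, and the mean difference was 94.7 points (SD 5.60, n = 5, edgeR adjusted p = 6.01e-11). The limma adjusted p was 0.0767 over varying dyads and 0.675 over all. It rested on at least 44 reads per strand in each library.

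At chr2:98506419-98506420 F read 99.1%, 97.0% and 96.4% in KI1 to KI3 and 94.9% and 96.2% in WT1 and WT2. R read 15.9%, 25.4% and 24.4%, and 27.9% and 18.9%. The mean difference was 74.2 points (SD 6.19, n = 5, edgeR adjusted p = 1.18e-22, limma adjusted p = 0.0297 over varying dyads and 0.219 over all).

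At chr17:22531648-22531649 the direction was the opposite. F read 28.8%, 22.3% and 21.3% in KI1 to KI3 and 26.0% and 21.9% in WT1 and WT2, and R read 83.1%, 100% and 86.4%, and 100% and 80.8%. The mean difference was -65.97 points (SD 9.90, n = 5, edgeR adjusted p = 0.00161). The limma adjusted p was 0.402 over varying dyads and 1 over all. Coverage was uneven, with 21 to 154 reads on R and 304 to 2709 on F.

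Among the dyads with the smallest p in each direction, chr5:147072635-147072636 had F from 7.80 to 15.6% and R from 41.6 to 93.8% (mean difference -59.4 points, SD 24.6, edgeR adjusted p = 1.21e-25). Its limma adjusted p was 1 over varying dyads and over all. Its R strand had 16 to 257 reads and its F strand 2104 to 15494. At chr11:108873242-108873243 F read 19.2%, 27.9% and 20.3% in KI1 to KI3 and 20.0% and 20.8% in WT1 and WT2, and R read 0 to 1.96% (mean difference 21.1 points, SD 3.95, edgeR adjusted p = 3.49e-50). Its limma adjusted p was 0.143 over varying dyads and 0.675 over all.

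The other 4 lay in the chromosome 17 stretch. The dyad at chr17:39981711-39981712 averaged 18.7 points (SD 7.61) and that at chr17:39985425-39985426 averaged 13.2 points (SD 3.60), both higher on F. The dyad at chr17:39985379-39985380 averaged -15.1 points (SD 3.04) and that at chr17:39981844-39981845 averaged -11.2 points (SD 5.48). F-higher and R-higher dyads thus lay within the same 5390 bases, 6 and 12 of them called by edgeR. For these 4 the limma adjusted p ran from 0.143 to 0.841 over varying dyads and from 0.576 to 1 over all.

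**Figure D5:**
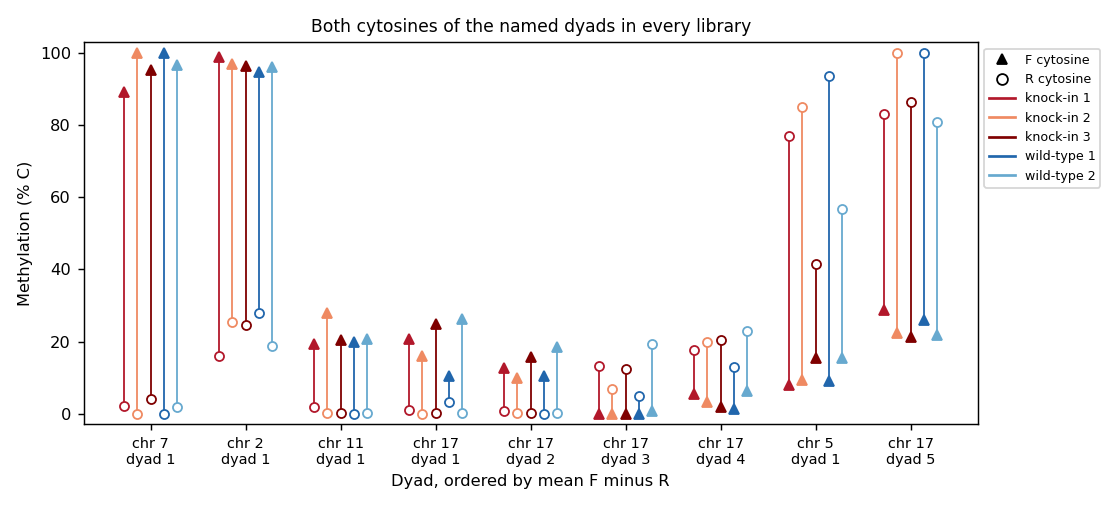
Level in percent C (y axis) of the F cytosine (triangles) and R cytosine (circles) of the 9 named dyads, ordered by mean strand difference (x axis), with 1 line per library joining the strands. F lies above R in each library for the first 5 dyads and below it for the last 4.

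Within single libraries, where the test measures counting error alone, Fisher's exact test with Benjamini-Hochberg adjustment called 763, 831 and 843 dyads in KI1, KI2 and KI3 (3.55%, 3.87% and 3.92%). It called 194 and 82 in WT1 and WT2 (0.903% and 0.382%). Of all dyads 19376 were called in no library, 1674 in 1, 344 in 2, 55 in 3, 19 in 4 and 22 in 5. The 22 had the same sign in all libraries, and 18 of them were among the 29 above. At a minimum of 20 reads, which leaves 3329 dyads, the counts were 156, 190, 171, 68 and 65 in the same order.

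The strand difference was then compared between genotypes. The strand by genotype term called no dyad in either direction (0% and 0% of 21490, edgeR), with 5 and 6 at an unadjusted p under 0.05. This too is far below a share of 0.05, so the absence of calls does not show that strand differences were alike in both groups. The smallest p in each direction belonged to chr17:39982701-39982702, with a mean strand difference of 9.93 points in KI1 to KI3 and -17.5 in WT1 and WT2, and chr17:39980048-39980049, with -7.71 and 1.72 points. At the first of these the difference was 12.7 and 16.5 points in KI1 and KI2 but 0.66 in KI3. Its R strand had 24 to 251 reads and its F strand 2241 to 14316. At the second of these WT1 was at -4.82 points, below 0 like the KI libraries. WT2 was at 8.25 points, on 19 F and 3274 R reads. Next came chr7:144500926-144500927, with 35.7 and -49.8 points, and chr16:11144188-11144189, with -5.21 and 2.38 points. Each had an edgeR adjusted p of 1. Without KI3, 3 dyads were called, among them chr17:39982701-39982702, and limma over all dyads called 2.

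The share of dyads at 50 points or more, after taking away the share expected from reads, was 0.711% ± 0.889 (SD, n = 3) in KI libraries against 0.513% ± 0.667 (SD, n = 2) in WT libraries. The difference of 0.198 points was smaller than the spread within either group (exact permutation test over the 10 groupings, 2-sided, p = 0.9, the smallest possible being 0.1). Its sign turned when KI2 was left out, to -0.30 points, or WT2, to -0.27 points.

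The squared strand difference over its expectation, in intermediate dyads, was 8.01, 11.4 and 7.14 in KI1 to KI3 and 5.67 and 2.46 in WT1 and WT2. These ranges did not overlap (8.84 ± 2.24 SD, n = 3, against 4.06 ± 2.27 SD, n = 2, exact permutation test, 2-sided, p = 0.1, the smallest possible). Adjusted over the 24 group comparisons made, p was 0.343. The libraries differed in depth. Among intermediate dyads with 20 to 39 reads on the less covered strand, the ratio was 6.30 and 11.3 in KI1 and KI2. There it was 7.04 and 2.26 in WT1 and WT2, so the ranges overlapped, and KI3 had too few such dyads for a value. At 10 to 19 reads they did not overlap, with 8.04 and 10.9 in KI1 and KI2 and 5.31 and 1.79 in WT1 and WT2. Nor did they at 40 to 79 reads, with 8.42, 21.9 and 6.68 in KI1 to KI3 and 3.39 in WT2. At 160 reads or more WT2 was the highest, at 113.8, against 89.9, 10.6 and 31.3 in KI1 to KI3. Whether depth accounts for the group difference was not tested.

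Mean dyad level was 10.7% ± 0.273 (SD, n = 3) in KI libraries against 10.3% ± 0.192 (SD, n = 2) in WT libraries, a difference of 0.44 points (exact permutation test, 2-sided, p = 0.2, adjusted 0.343). The cytosines of each strand gave nearly the same difference, 0.441 points on F and 0.439 on R. Among intermediate dyads the level was 49.8% ± 3.45 (SD, n = 3) against 45.7% ± 0.973 (SD, n = 2), 4.12 points apart (exact permutation p = 0.2, adjusted 0.343). In both comparisons KI3 lay close to the wild-type range.

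In the genotype fit over all 259145 CpGs edgeR called 1 CpG higher in the knock-in (0.000386%) and 0 lower (0%), and that CpG was read on 1 strand. Without the CpGs in the top 0.1% of coverage none was called. No dyad was called in the full fit, with 28 higher and 43 lower of 21490 at an unadjusted p under 0.05. Over all 259145 CpGs 535 were higher and 191 lower at that limit. Both totals are far below a share of 0.05, so the absence of calls does not show that the groups were alike. With a variance fit over all CpGs, limma called 7 dyads (0.0326%), against 116 of all CpGs (0.0448%), 83 higher and 33 lower in the knock-in. Over the CpGs that vary it called 0 dyads and 0 CpGs. The dyads with the smallest p lay at the ends of the scale. At chr18:36823921-36823922 and chr6:89281393-89281394 all knock-in strand values were 100%, and the wild-type libraries averaged 89.3% and 91.2%. At chr2:162486824-162486825, in the promoter of 9430021M05Rik, and at chr3:87804229-87804230 all knock-in values were 0%, and the wild-type libraries averaged 5.73% and 7.38%. The wild-type F values were also 0% at both dyads. R in WT1 and WT2 read 16.7% and 6.25% at the first and 11.1% and 18.4% at the second. Each of the dyads named for this fit had an edgeR adjusted p of 1.

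Both cytosines of a dyad also give a check of separation between the groups within each library. Counting dyads in which every KI library lay beyond each WT library and the group means were 10 points or more apart, the F cytosine alone gave 255 higher in the knock-in (1.19%) and 126 lower (0.586%). The R cytosine alone gave 279 higher (1.30%) and 135 lower (0.628%), and the mean of both gave 282 (1.31%) and 90 (0.419%). When all 6 knock-in strand values had to lie beyond all 4 wild-type strand values, 25 higher (0.116%) and 4 lower (0.0186%) were left. The 2 cytosines share libraries, and these counts carry no test. They were made over dyads only, so whether these shares are particular to dyads was not tested.

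The 4 dyads given here were chosen after their values were seen. The largest difference of group means was at chr5:111847751-111847752. F and R read 45.5% and 39.8%, 100% and 96.0%, and 34.4% and 33.3% in KI1, KI2 and KI3. They read 12.9% and 18.5%, and 18.5% and 9.30%, in WT1 and WT2. At chr9:114694775-114694776 the knock-in strand values ran from 11.97 to 66.7%, and the 4 wild-type values were 0% on 16 to 35 reads each. At chr19:41113809-41113810 the knock-in mean was 29.7% (SD 1.29) and the wild-type mean 4.03% (SD 2.16). At chr15:88367805-88367806 the order was the reverse, 3.98% (SD 3.76) against 25.2% (SD 0.594).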

How the data were processed

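DNA methylation was measured in 5 libraries by bisulfite sequencing of MspI fragments. The submitters' processing notes name CASAVA 1.7, Bismark (version not given in the sources used here) and mm9. Per the file headers, each deposited table lists a CpG cytosine by chromosome, base and strand, with its coverage, a whole read count of at least 10, and the percent of C and of T reads. Methylated and unmethylated reads were computed as coverage times these percentages, and were whole within the rounding of the deposited values at 100% of positions. No step of duplicate removal is given in the sources used here.

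Positions were joined over libraries, and autosomal dyads with 10 or more reads on F and R in all 5 were kept. Library numbers within a group (KI1 to KI3, WT1 and WT2) follow accession order and pair nothing. The strand, strand by genotype and genotype tests used edgeR 4.0.16 (modelMatrixMeth, quasi-likelihood, Benjamini-Hochberg at 0.05) in R 4.3.3, the last fitted over all shared CpGs. Expected strand differences are hypergeometric (scipy 1.17.1). The strand fits and the expected differences were tested on simulated data, the genotype terms and Fisher's test were not. Alternatives are in the closing section, among them limma 3.58.1. Its variance fit over varying dyads only was added after a first result over all dyads had been seen, and both are given.

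The members, lists and measures were chosen with earlier results of these data known. Named dyads were the up to 10 with 50 points or more of 1 sign in all libraries (3 exist), the 3 with the smallest p in each direction of the strand fit and the 2 in each direction of the other fits, at most 1 per 1 kb. Genes were to be named only from an annotation of mm9. As none was in use, the promoter placement (4 CpG spacings in a row, at least 8 listed CpGs, no listed CpG that the sequence lacks) was added later and departs from that rule. The level classes, depth bins, neighbour and layout limits and the 50-base CCGG limit were also set after the data had been seen.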

Additional observations from a re-analysis of the deposited data

How the results depend on the processing

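The 29 strand calls became 19 without the top 0.1% of coverage, fewer dyads being tested, and ranged from 19 (without WT2) to 31 when 1 library was left out. Limma called 0 over all dyads and 2 over varying dyads, 1 of which was among the 29, and the cause was not tested. The 9 named strand dyads kept their call in the edgeR alternatives that tested them, and all but chr2:98506419-98506420 lost it in both limma fits. Strand by genotype calls, 0 as reported, ranged from 0 to 3 when 1 library was left out (3 without KI3) and were 2 with limma over all dyads. Genotype calls among dyads, 0 as reported, ranged from 0 to 1 (1 without WT1) and were 7 with limma over all dyads, and the cause was not tested. At 20 reads fewer dyads were tested and per-library calls were 156, 190 and 171 in the knock-in libraries and 68 in WT1. The genotype difference in the share at 50 points or more ranged from -0.30 (without KI2) to 0.670 points (without WT1) and was -0.27 without WT2. Mean F minus mean R, weighted by reads, was 3.16 points, and the cause was not tested. By library it was 4.89, 1.87 and 4.26 points in KI1 to KI3 and 2.99 and 1.78 in WT1 and WT2. Without the chromosome 17 stretch it was larger in each, at 6.45, 2.48 and 6.50, and 3.81 and 3.20 points. Unweighted, at 20 reads, mean F minus mean R turned above 0 in 1 of 5 libraries (KI1). The mean dyad level difference stayed above 0, from 0.173 points (20 reads) to 0.608 points (weighted by reads). Leaving out KI2 and WT1 together, chosen after seeing the data, gave 40 strand calls, 28 of them among the 29. It gave 0 strand by genotype calls, 0 genotype calls among dyads and differences of 0.174 points in mean level and 0.168 points in the share at 50 points or more. WT1, at 20 reads per strand, sets the depth limit. No paired analysis was possible because the replicate numbers come from accession order and the labels pair no libraries.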

Other observations

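The 161 dyads of chromosome X were left out of the comparisons. A strand difference of 50 points or more was seen in 1, 34 and 2 of them in KI1, KI2 and KI3 and in 22 and 0 in WT1 and WT2. Their RMS strand difference was 11.99, 36.7 and 10.6 points in KI1 to KI3 and 31.9 and 10.7 points in WT1 and WT2, against 4.83, 9.99 and 3.09, and 12.8 and 6.12, expected from read counts. The mean R level was 16.0%, 35.2% and 15.6% in KI1 to KI3 and 32.5% and 15.0% in WT1 and WT2. The labels used here do not give the sex of the animals.

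The dyad at chr7:28113819-28113820, chosen because limma over varying dyads called it (adjusted p = 0.0297), had an edgeR adjusted p of 1. F read 65.7%, 46.2% and 43.4% in KI1 to KI3 and 15.8% and 42.9% in WT1 and WT2, and R read 18.8%, 7.14% and 5.26%, and 0% and 5%. F was higher in 5 of 5 libraries, by 35.6 points on average (SD 11.7).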
